A study of Mus musculus with 21 samples.

Results

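The miRNA-seq table of the developing mouse auditory system listed 1647 mature miRNAs, and 799 of them carried a miRBase number of 3000 or more. Examined here were the 52 late-numbered miRNAs that held at least 50 counts summed over the 10 cochlea libraries (miR-3072 was set aside). The remaining 747 held fewer, 222 of them with no cochlea count at all. The 52 were thus selected on their summed cochlea counts, and their cochlea levels are given as a description. The same minimum was met by 354 miRNAs with a number under 3000, which served for comparison.

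Small RNA was sequenced from untreated wild-type mice at embryonic day 16 (E16), on the day of birth (P0) and at postnatal day 16 (P16), in the sensory epithelium of the cochlea (2, 4 and 4 libraries) and in the superior olivary complex, SOC, an auditory brainstem centre (4, 4 and 3 libraries). The cochlea came from C57BL/6JOlaHsd mice and was prepared with a Direct-zol kit and the SMARTer smRNA-Seq kit, which tails the RNA and switches template. The SOC came from C57Bl6/J mice and was prepared with an innuPREP miRNA kit and the TruSeq Small RNA kit, which ligates adaptors. Tissue of several animals was pooled, and organ, mouse substrain and kit cannot be told apart.

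Depth differed widely between the organs. Cochlea libraries held 124400 to 447419 counts (median 196885) and SOC libraries 8309669 to 18053698 (median 11706138), so 1 count was worth 2.24 to 8.04 CPM (counts per 1e6 counts of the library) in cochlea and 0.0554 to 0.120 CPM in SOC. A count of 0 allowed up to 3 counts, on average 15.6 CPM in a cochlea library and 0.259 CPM in an SOC library, which covers counting error only. The hair cell miRNAs miR-183-5p, miR-96-5p and miR-182-5p together reached 10805 to 71872 CPM in every cochlea library, and the neuronal miR-124-3p and miR-9-5p 27720 to 108712 CPM in SOC against 226 to 3066 CPM in cochlea. At E16 the SOC libraries also held 97018 to 147946 CPM of the hair cell miRNAs. By their most abundant miRNAs the SOC libraries fell into 3 sets that cut across the time points. More than 10% of counts were miR-99b-5p in E16 replicates 2 and 3 and P0 replicates 2 and 3, less than 1% were miR-191-5p in P0 replicate 4 and P16 replicates 2 and 3, and the other 4 libraries had neither feature. Changes in the SOC are therefore given within these sets as well.

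A miRNA is cut from a hairpin transcript by Drosha and Dicer into a duplex, and either strand of the duplex, the 5p or the 3p arm, can be loaded onto an Argonaute protein. Bases 2 to 8 of the loaded strand, the seed, pair with target mRNAs. Some hairpins bypass Drosha, among them mirtrons, whose ends are made by splicing of a short intron, and hairpins cut from snoRNAs or scaRNAs, small RNAs that guide the modification of other RNAs. miRBase numbers entries in the order of submission, so high numbers come largely from deep sequencing studies, and reads on both arms of a hairpin are one of the features used to tell a miRNA from a fragment of another RNA.

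RefSeq (GRCm38.p6) held a mature sequence for 43 of the 52 miRNAs. Those on which the results turn are printed 5′ to 3′ with the seed in capitals. The first are the 3 products of the Mir3102 hairpin that met the minimum, the first and second of which lie end to end, on the minus strand at chr7:100882307-100882329, chr7:100882330-100882350 and chr7:100882367-100882387 inside Arhgef17.
miR-3102-3p: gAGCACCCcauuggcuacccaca
miR-3102-3p.2-3p: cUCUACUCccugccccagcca
miR-3102-5p.2-5p: gGUGGUGCaggcaggagagcc

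Both arms of the Mir6715 hairpin are shown because the dominant arm differed between the organs. They lie on the plus strand at chr19:55192678-55192700 and chr19:55192714-55192734 in an exon of Tectb, the gene of the tectorial membrane protein β-tectorin.
miR-6715-5p: aCAGGCACcacagguuugagcau
miR-6715-3p: cCAAACCAggcgugccugugg

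The following are shown because they were called in cochlea and had high counts. miR-7667-5p lies at chr17:29595538-29595559 (plus strand, intron of Tbc1d22b), miR-6412 at chr10:122648412-122648433 (plus strand) and miR-3099-3p at chr7:6803638-6803659 (plus strand, intron of Usp29). miR-5615-5p has a locus on either strand of chromosome 10, at chr10:81104652-81104673 on the minus strand and chr10:81104616-81104637 on the plus strand.
miR-7667-5p: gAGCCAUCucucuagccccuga
miR-6412: uCGAAACCauccucagcuacua
miR-3099-3p: uAGGCUAGagagagguugggga
miR-5615-5p: cUUGGUUGuuuucugagacaga

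The next pair is printed with other capitals, which mark the run CGAAUCCCA that they share. miR-5100 lies at chr11:60728698-60728718 (plus strand, intron of Mief2, a mitochondrial fission gene) and miR-3968 at chr11:115447969-115447989 (minus strand). Of the 1415 listed miRNAs with a sequence, 2 held this run, and both were among the 43. The overlapping run UCGAAUC, or the form shifted by 1 base (UUCGAAU), as found in the T loop of many tRNAs, occurred in 1 of the 43 and 1 of the 1415, which was miR-5100 in both cases. Only the printed strand of the mature sequence was searched.
miR-3968: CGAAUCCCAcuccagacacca
miR-5100: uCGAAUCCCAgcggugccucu

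No member of the 43 shared its whole seed with another member, and 5 shared it with another listed miRNA. The members are therefore described by locus and time course.

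Of the 52 miRNAs, 42 had a count in every cochlea library. Just inside the minimum were miR-3064-5p, miR-3473d and miR-6931-5p with 51 counts each, and just outside were miR-8103 with 49, miR-3082-5p with 48 and miR-3095-3p and miR-7058-3p with 47. Without the libraries of 1 time point, 26 of the 52 would have fallen under the minimum, 12 without E16, 17 without P0 and 19 without P16. miR-8117 owed its place to a single library, with 147 of its 156 counts in cochlea P0 replicate 3.

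Together the 52 took up 0.556% to 0.619% of the counts in the 2 cochlea libraries of E16, 0.712% to 0.943% in the 4 of P0 and 0.935% to 1.14% in the 4 of P16. The Wilson 95% interval was 0.535% to 0.579% for the lowest of these libraries and 1.09% to 1.19% for the highest. The E16 libraries lay below all P0 libraries, while the highest P0 library (replicate 3) lay above the lowest P16 library. Without miR-5100 the share at P16 was 0.804% to 0.987%. In SOC the same miRNAs held 0.0651% to 0.139% of counts at E16, 0.0990% to 0.209% at P0 and 0.0839% to 0.174% at P16, and the time points overlapped.

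Within each organ, time points were compared with the quasi-likelihood test of edgeR on all miRNAs detected in that organ. A miRNA was called when the false discovery rate (FDR) was under 0.05, the fold change over 1.5 and the replicates of both time points did not overlap. Of 896 miRNAs tested in cochlea, 24.4% were called between E16 and P0, 7.81% higher and 16.6% lower at P0. All 52 late-numbered miRNAs were tested, and 11 were called higher and 3 lower. Between E16 and P16 the share called among all miRNAs was 29.6%, with 10.9% higher and 18.6% lower at P16, and of the 52 miRNAs 23 were higher and 3 lower. From P0 to P16 the share called was 10.5% of all, 3.91% higher and 6.58% lower, and of the 52 miRNAs 5 were higher and 3 lower. The median log2 fold change of the 52 was 1.29 from E16 to P0 and 1.36 from E16 to P16, against 0.00 and -0.09 for all miRNAs tested. From P0 to P16 it was 0.41 against 0.05.

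These counts are tied to the choice of miRNAs, because a miRNA that reached 50 counts only through its high time point had to differ. Of the 23 higher at P16 than at E16, 12 would have met the minimum without the P16 libraries, as would 33 of the 52. For the 11 higher at P0 than at E16, the numbers were 8 of 35. Of the called miRNAs described below, miR-5100, miR-3065-3p, miR-7047-3p, miR-7052-3p, miR-7653-3p, miR-6980-5p and miR-7011-5p needed the P16 libraries to meet the minimum. miR-6980-5p and miR-7011-5p needed those of P0 as well. miR-6540-5p and miR-3074-1-3p needed those of E16. Of the miRNAs whose change differed between the organs, miR-3102-5p.2-5p needed the E16 libraries and miR-3472 needed those of P0 and of P16. The cochlea changes of these miRNAs are tied to the choice. Scaling mattered as well. With library totals in place of TMM factors the median of all cochlea miRNAs shifted to -0.38 from E16 to P0 and to -0.58 from E16 to P16, and the calls split into 5 higher and 4 lower at P0 and into 16 higher and 5 lower at P16. E16 rested on 2 libraries. Without replicate 1 of E16 the calls from E16 to P0 fell to 4, and without replicate 2 to 7. From E16 to P16, 15 calls were made without replicate 2. Over the same interval the hair cell miRNAs went from 69630 to 71872 CPM at E16 to 10805 to 40102 CPM at P16, the oligodendrocyte miRNAs miR-219a-2-3p and miR-338-3p from 17.9 to 43.5 CPM to 191 to 534 CPM, and the muscle miRNAs from 631 to 706 CPM to 711 to 4487 CPM, with miR-133a-3p at 0 in every cochlea library. The 6 epithelial miRNAs (the miR-200 family and miR-205-5p) went from 18498 to 28045 CPM at E16 to 1587 to 6679 CPM at P16, and the 3 white blood cell miRNAs from 1953 to 2094 CPM to 449 to 752 CPM. The red blood cell miRNAs miR-451a and miR-144-3p had 14.5 to 29.1 CPM at E16 and no count at P0 or P16. The part of these cells in the results was not tested. In bulk tissue, fewer cells of a type and less RNA per cell cannot be told apart.

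**Figure D1:**
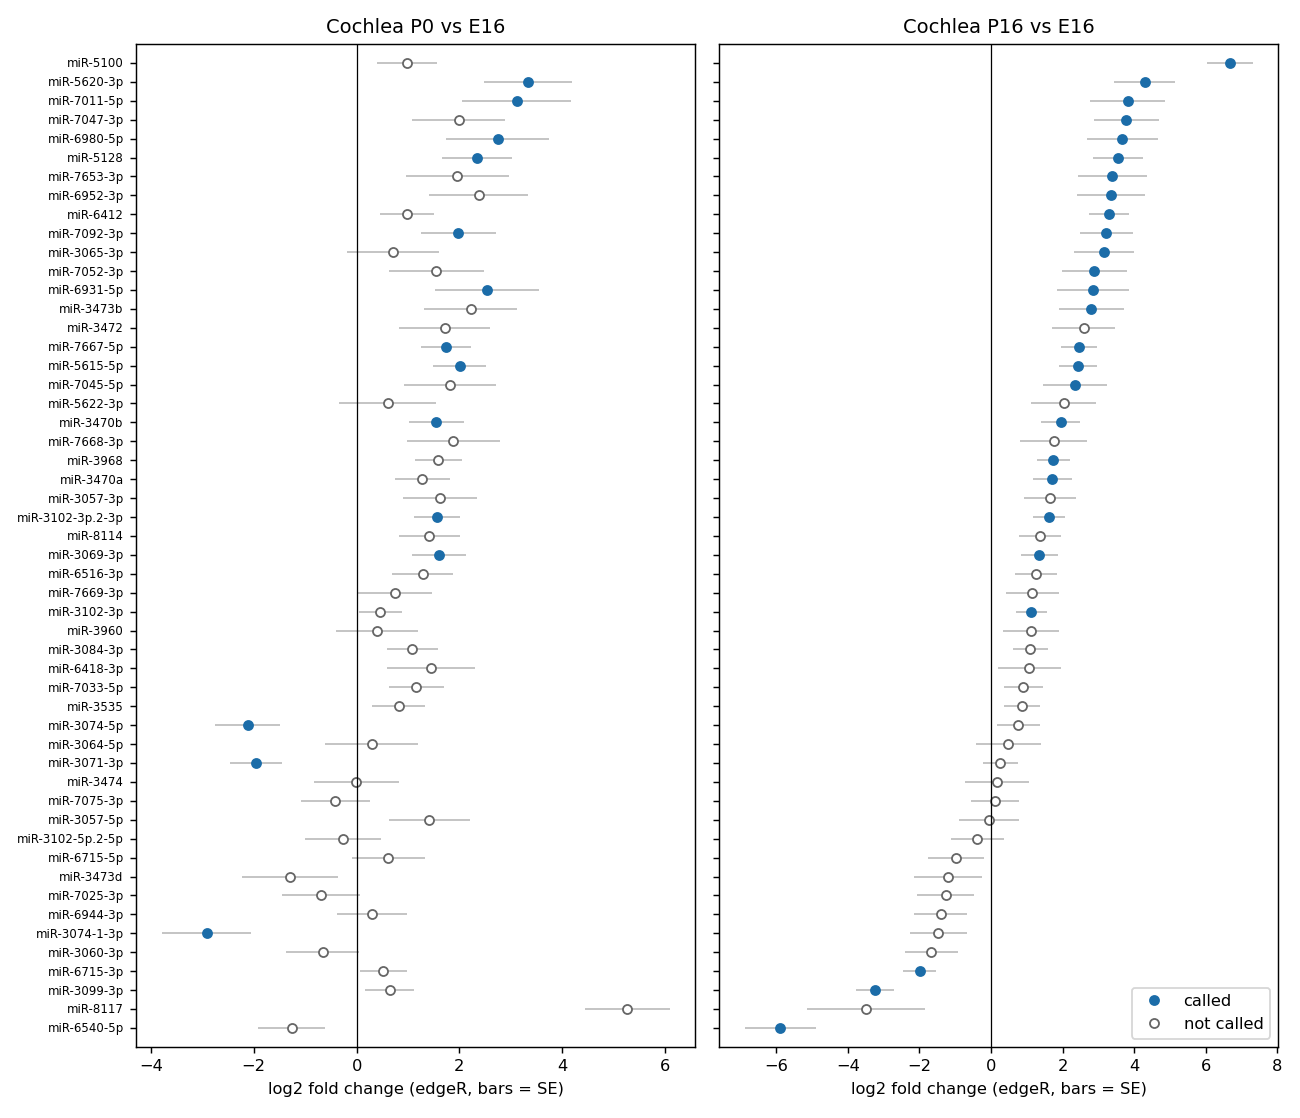
Change of each of the 52 late-numbered miRNAs in cochlea, as edgeR log2 fold change on the x axis with its SE as bars, from E16 to P0 (left) and from E16 to P16 (right), with called miRNAs filled and ordered by the P16 value. In the P16 panel 23 filled points lie to the right of 0 and 3 to the left, with miR-5100 at the top (6.68) and miR-6540-5p at the bottom (-5.89).

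miR-5100 showed the largest rise of all 52 from E16 to P16 in cochlea. It stood at 19.1 and 15.6 CPM (TMM-normalised) at E16, at 64.2, 24.4, 32.1 and 16.6 CPM at P0 and at 1330, 3730, 1320 and 907 CPM at P16. From here on, CPM values of late-numbered miRNAs in single libraries are TMM-normalised. Those of cell type markers, pooled levels, the detection filter and the level allowed by a count of 0 use library totals. All P16 libraries lay far above all earlier ones, whereas E16 and P0 overlapped. The log2 fold change was 6.68 ± 0.63 (SE) from E16 to P16 (edgeR FDR 1.61e-23) and 5.71 ± 0.45 from P0 to P16 (edgeR FDR 4.08e-33). From E16 to P0 it was 0.98 ± 0.58 and did not pass. In counts, 41 fell on E16 and P0 together and 1061 on P16. None of this was mirrored in the much deeper SOC libraries, where miR-5100 had 0 to 0.869 CPM at E16, 0 to 1.49 CPM at P0 and 0 to 0.282 CPM at P16, too little to be tested.

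miR-3968, which shares the run CGAAUCCCA with miR-5100, followed another course. In cochlea it stood at 294 and 293 CPM at E16, at 289, 399, 2400 and 471 CPM at P0 and at 1260, 1830, 505 and 327 CPM at P16. All P16 libraries were above E16 (log2 fold change 1.74 ± 0.46, edgeR FDR 0.001), replicates 3 and 4 the least so. Without E16 replicate 2 the call was lost (log2 fold change 1.58, edgeR FDR 0.0696). P0 overlapped both other time points, with replicate 3 alone at a high value. In SOC it was plentiful, at 89.8, 100, 47.1 and 184 CPM at E16, at 108, 42.3, 60.1 and 701 CPM at P0 and at 45.1, 286 and 260 CPM at P16. There all time points overlapped and no contrast passed.

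By summed cochlea counts, miR-3102-3p and miR-3102-3p.2-3p from the Mir3102 hairpin ranked first and second of the 52. miR-3102-3p stood at 833 and 827 CPM at E16, at 963, 1460, 931 and 1210 CPM at P0 and at 1070, 2510, 2080 and 1610 CPM at P16. It rose from E16 to P16 by 1.13 ± 0.43 on the log2 scale (edgeR FDR 0.0308), and the P0 and P16 libraries overlapped. That call was lost without either E16 library (edgeR FDR 0.199 and 0.284, log2 fold changes 1.13 and 0.99), without P16 replicate 3 (1.06, edgeR FDR 0.0579) and with library totals (0.60).

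The neighbouring miR-3102-3p.2-3p stood at 378 and 415 CPM at E16, at 899, 1130, 1370 and 1300 CPM at P0 and at 602, 1930, 963 and 1380 CPM at P16. Here the step came before birth, with a log2 fold change of 1.56 ± 0.45 from E16 to P0 (edgeR FDR 0.00382) and 1.61 ± 0.45 from E16 to P16 (edgeR FDR 0.00191), while P0 and P16 overlapped. With 1 E16 library only, edgeR FDR was 0.104 and 0.0829 for P0 and 0.0702 and 0.0722 for P16, at log2 fold changes of 1.49 to 1.58. With library totals both contrasts missed the threshold (1.09 and 1.06). In SOC it was lower at every time point, with 1.76, 2.47, 3.40 and 4.69 CPM at E16, 3.12, 0.833, 3.37 and 2.56 CPM at P0 and 17.8, 20.8 and 13.0 CPM at P16. The P16 libraries lay above all others, by 2.48 ± 0.51 over E16 (edgeR FDR 0.00283) and 2.79 ± 0.52 over P0 (edgeR FDR 0.00515).

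The other strand of that duplex, miR-3102-5p.2-5p, was called in no cochlea contrast. It stood at 43.6 and 48.6 CPM at E16, at 21.4, 24.4, 96.3 and 16.6 CPM at P0 and at 25.5, 46.7, 13.3 and 59.5 CPM at P16, with a log2 fold change of -0.38 ± 0.75 from E16 to P16. In SOC it rose from 2.23, 2.55, 1.30 and 5.82 CPM at E16 to 15.6, 58.5 and 46.7 CPM at P16, by 3.76 ± 0.85 (edgeR FDR 0.00471). At P0 it stood at 2.67, 3.42, 4.62 and 25.2 CPM, with replicate 4 in the range of P16 and the others in that of E16. The highest libraries, P0 replicate 4 and P16 replicates 2 and 3, were those poor in miR-191-5p. The change from E16 to P16 differed between the organs by 4.03 ± 1.16 on the log2 scale (edgeR interaction FDR 0.0203). In cochlea miR-3102-5p.2-5p met the minimum only with the E16 libraries, so this difference is tied to the choice of miRNAs. The outer arm miR-3102-5p had a single count in all cochlea libraries.

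**Figure D2:**
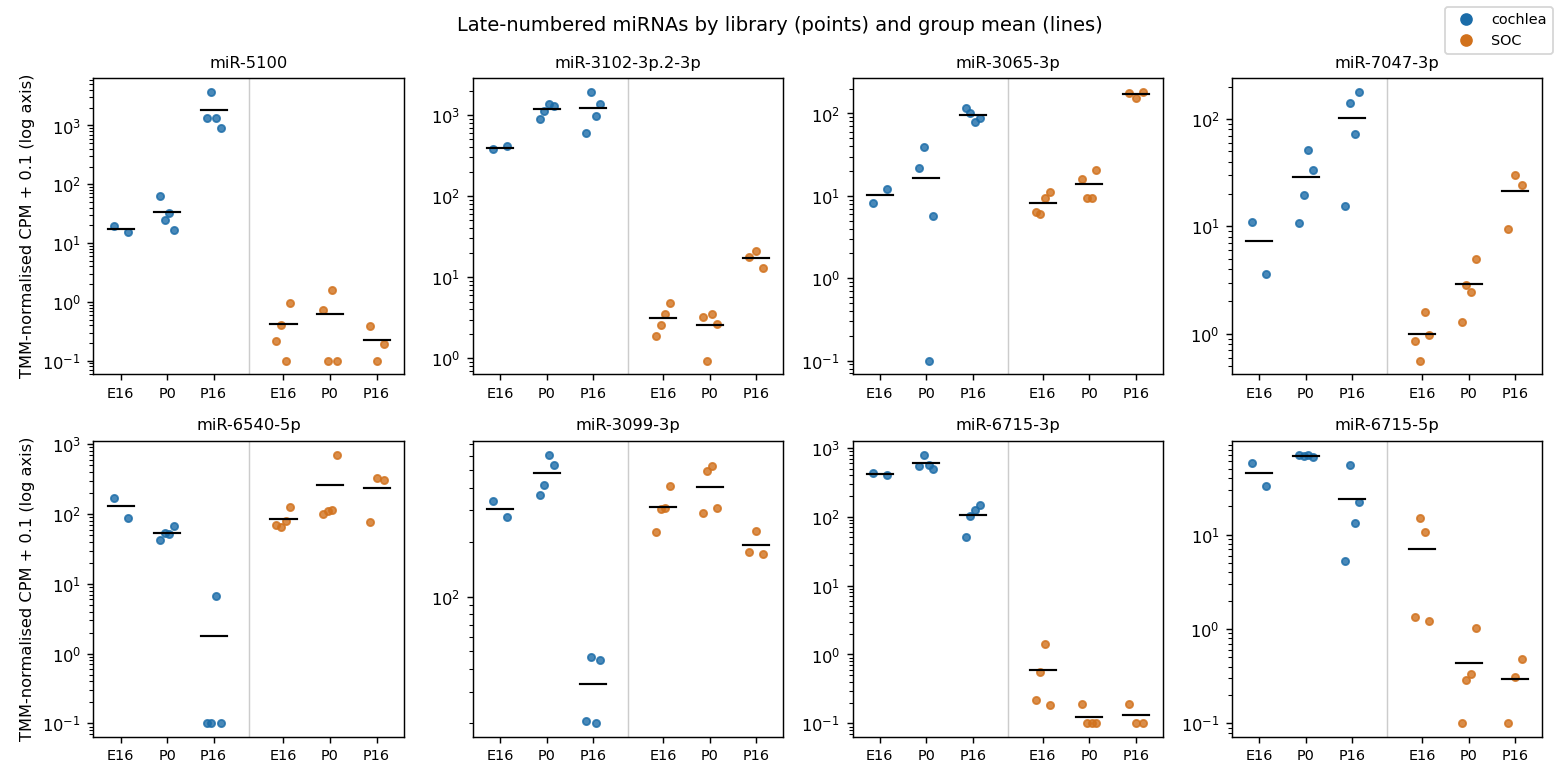
Levels of 8 late-numbered miRNAs in each library as TMM-normalised CPM plus 0.1 (log axis), by time point, for cochlea (left of the grey line) and SOC (right of it), with points for libraries and black lines for group means. miR-5100 is at 907 to 3730 CPM in the cochlea P16 libraries and under 2 CPM in every SOC library, and miR-6540-5p is at 0 in 3 of 4 cochlea P16 libraries while SOC P16 holds 76.8 to 325 CPM.

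Several miRNAs were already higher at P0 and remained so. miR-7667-5p stood at 109 and 125 CPM at E16, at 471, 433, 327 and 343 CPM at P0 and at 627, 872, 538 and 543 CPM at P16, so that no time points overlapped. The log2 fold change was 1.75 ± 0.49 from E16 to P0 (edgeR FDR 0.00282) and 2.45 ± 0.50 from E16 to P16 (edgeR FDR 1.14e-05), and the P0 call was lost without E16 replicate 1 or 2 (log2 fold changes 1.65 and 1.81, edgeR FDR 0.0957 and 0.0681). miR-5615-5p stood at 92.6 and 69.5 CPM at E16, at 369, 394, 225 and 310 CPM at P0 and at 469, 529, 372 and 379 CPM at P16. Both later groups lay above E16, by 2.01 ± 0.52 (edgeR FDR 0.000994) and 2.43 ± 0.53 (edgeR FDR 3.61e-05). Without E16 replicate 2 the P0 value was 1.76 (edgeR FDR 0.0885). In SOC this pair was near the limit of detection, miR-7667-5p at 0 to 0.434 CPM and miR-5615-5p at 0 to 1.40 CPM over all libraries. miR-5615-5p passed the detection filter in SOC, where no contrast passed (-0.92 ± 1.00 from E16 to P16, edgeR FDR 0.472), and the organs differed by -3.52 ± 1.10 (edgeR interaction FDR 0.0299).

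A group of scarce miRNAs had some of the next largest folds in cochlea, on a handful of counts at E16. miR-5620-3p stood at 10.9 and 1.74 CPM at E16, at 112, 39.0, 57.8 and 38.8 CPM at P0 and at 214, 101, 66.4 and 96.6 CPM at P16. That is 5, 45 and 78 counts, and log2 fold changes over E16 of 3.33 ± 0.86 at P0 (edgeR FDR 0.000994) and 4.29 ± 0.86 at P16 (edgeR FDR 6.89e-06), with the P0 call lost without E16 replicate 2 (2.40, edgeR FDR 0.141). miR-6980-5p stood at 2.72 and 5.21 CPM, then at 32.1, 14.6, 57.8 and 22.2 CPM and then at 76.5, 31.1, 46.5 and 81.8 CPM. Both miRNAs were lowest in the 2 E16 libraries. For miR-6980-5p the log2 fold changes were 2.75 ± 1.00 at P0 (edgeR FDR 0.0281) and 3.67 ± 0.99 at P16 (edgeR FDR 0.00125). Its P0 call was lost without E16 replicate 1 (2.44, edgeR FDR 0.217), E16 replicate 2 (3.20, edgeR FDR 0.149) or P0 replicate 3 (2.31, edgeR FDR 0.112) and with library totals (2.31). miR-7011-5p had 0 and 5.21 CPM at E16, 26.7, 24.4, 32.1 and 38.8 CPM at P0 and 61.2, 46.7, 39.8 and 52.0 CPM at P16, without overlap between any time points. With 3 counts at E16, its ratio of summed counts, scaled by library totals, was 6.93 at P0 (95% counting interval 2.08 to 36.2) and 11.2 at P16 (3.50 to 57.3). These intervals leave out the spread between libraries. By the edgeR fit the calls had edgeR FDR of 0.0163 (log2 fold change 3.11 ± 1.06) and 0.00156. Without E16 replicate 1 both were lost (edgeR FDR 0.235 and 0.0749, fitted log2 fold changes 2.41 and 3.12).

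miR-6412, miR-3065-3p, miR-7047-3p and miR-7052-3p rose towards P16 in both organs. In cochlea miR-3065-3p, miR-7047-3p and miR-7052-3p met the minimum only with the P16 libraries, so their rise there is tied to the choice of miRNAs. In SOC miR-7052-3p passed the detection filter only through its P16 libraries. In cochlea miR-6412 stood at 46.3 and 62.5 CPM at E16, at 42.8, 146, 89.9 and 155 CPM at P0 and at 745, 949, 252 and 230 CPM at P16. Its P16 libraries lay above all others, by 3.30 ± 0.57 over E16 (edgeR FDR 8.85e-08) and 2.32 ± 0.42 over P0 (edgeR FDR 8.91e-07). In SOC the E16 libraries lay close together at 13.4, 12.3, 12.8 and 13.6 CPM, those of P0 at 34.1, 20.5, 14.3 and 54.0 CPM and those of P16 at 52.8, 82.3 and 84.8 CPM. The rise over E16 was 2.49 ± 0.46 at P16 (edgeR FDR 0.00138), and P0 and P16 overlapped.

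miR-3065-3p, whose hairpin is known to lie opposite that of the oligodendrocyte miRNA miR-338, had nearly the same course in both organs. In cochlea it stood at 8.17 and 12.2 CPM at E16, at 21.4, 39.0, 0 and 5.54 CPM at P0 and at 117, 101, 79.7 and 89.2 CPM at P16. In SOC it stood at 6.21, 5.94, 9.39 and 11.0 CPM at E16, at 15.8, 9.44, 9.32 and 20.7 CPM at P0 and at 177, 156 and 183 CPM at P16. The P16 libraries lay above all earlier ones in either organ. Over E16 the log2 fold change was 3.16 ± 0.85 in cochlea (edgeR FDR 0.00125) and 4.40 ± 0.44 in SOC (edgeR FDR 9.35e-05), and over P0 it was 2.45 ± 0.68 (edgeR FDR 0.00371) and 3.64 ± 0.43 (edgeR FDR 0.000353). Over the same time points the oligodendrocyte miRNAs miR-219a-2-3p and miR-338-3p went from 338 to 497 CPM at E16 and 167 to 541 CPM at P0 to 2921 to 6418 CPM at P16 in SOC, and their part in the result was not tested. The strand of the counting is not given in the sources used here, so reads of miR-3065 and of the hairpin opposite cannot be told apart.

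miR-7047-3p was called from E16 to P16 in both organs. It stood at 10.9 and 3.47 CPM in cochlea at E16, at 10.7, 19.5, 51.4 and 33.2 CPM at P0 and at 15.3, 140, 73.0 and 178 CPM at P16. The log2 fold change from E16 to P16 was 3.79 ± 0.90 (edgeR FDR 0.000186), with P0 overlapping both, and without E16 replicate 2 it was 2.99 (edgeR FDR 0.0537). SOC libraries held 0.762, 0.463, 1.5 and 0.869 CPM at E16, 1.18, 2.78, 2.35 and 4.88 CPM at P0 and 9.41, 29.7 and 24.0 CPM at P16. All SOC P16 libraries lay above the earlier ones, by 4.55 ± 0.62 over E16 (edgeR FDR 0.000248) and 2.92 ± 0.58 over P0 (edgeR FDR 0.0065).

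miR-7052-3p lies at chr7:44470391-44470411 on the plus strand in an intron of Josd2, which encodes a deubiquitinase. It stood at 2.72 and 12.2 CPM in cochlea at E16, at 16, 43.8, 25.7 and 11.1 CPM at P0 and at 35.7, 85.6, 73.0 and 59.5 CPM at P16, and the E16 to P16 change was 2.88 ± 0.91 (edgeR FDR 0.00696). Without E16 replicate 1 it was 2.30 (edgeR FDR 0.162). In SOC it had 0, 0.309, 0 and 0 CPM at E16, 0, 0.278, 0 and 1.16 CPM at P0 and 1.03, 2.23 and 1.82 CPM at P16. P16 lay above E16 (4.27 ± 1.40, edgeR FDR 0.0268), a call that was lost without E16 replicate 1, 3 or 4 (3.82 to 3.96, edgeR FDR 0.0617 to 0.0662).

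Counts of miR-3071-3p and of both arms of miR-3074 were lower at P0 than at E16 in cochlea. The Mir3071 hairpin lies opposite Mir136 in the imprinted Rtl1 gene (chr12:109595329-109595350, minus strand), and the Mir3074 hairpins lie opposite Mir24-1 and Mir24-2. Without the strand of the counting, reads of these miRNAs and of the hairpins opposite cannot be told apart. In cochlea miR-3071-3p stood at 280 and 241 CPM at E16, at 107, 97.4, 19.3 and 38.8 CPM at P0 and at 362, 195, 418 and 268 CPM at P16. P0 was below both other time points without overlap, by -1.96 ± 0.50 from E16 (edgeR FDR 0.000855), and the gain from P0 to P16 was 2.22 ± 0.45 (edgeR FDR 1.57e-05). miR-3074-5p stood at 98.0 and 95.5 CPM, then at 26.7, 24.4, 19.3 and 16.6 CPM and then at 184, 77.8, 159 and 238 CPM, with changes of -2.12 ± 0.64 (edgeR FDR 0.00609) and 2.89 ± 0.58 (edgeR FDR 1.26e-05). Again all P0 libraries were lowest. miR-3074-1-3p went from 73.5 and 59.0 CPM at E16 to 21.4, 0, 6.42 and 5.54 CPM at P0 (-2.92 ± 0.87, edgeR FDR 0.00576) and 10.2, 0, 39.8 and 44.6 CPM at P16, where it overlapped P0. Without E16 replicate 1 the P0 calls of the 2 miR-3074 arms were lost (-2.10 and -2.75, edgeR FDR 0.0511 and 0.0957). In SOC none of the 3 passed in any contrast, at 1.63 to 27.9 CPM for miR-3071-3p, 3.68 to 24.4 CPM for miR-3074-5p and 3.98 to 27.9 CPM for miR-3074-1-3p over all libraries.

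Only miR-6540-5p, miR-3099-3p and miR-6715-3p were called lower at P16 in cochlea, against E16 and against P0. miR-6540-5p stood at 172 and 88.6 CPM at E16, at 42.8, 53.6, 51.4 and 66.5 CPM at P0 and at 0, 0, 6.64 and 0 CPM at P16. It was nearly gone at P16. In summed counts scaled by library totals, 1 count stood against 114 at E16, 105-fold lower (95% counting interval 18.5 to 4184). Against 39 at P0 it was 34.0-fold lower (5.75 to 1376). These intervals leave out the spread between libraries. The edgeR log2 fold change was -5.89 ± 1.01 from E16 (edgeR FDR 7.81e-08), and the contrast with P0 had edgeR FDR 0.000118. In SOC miR-6540-5p held 70.3, 65.9, 78.1 and 127 CPM at E16, 99.5, 112, 113 and 712 CPM at P0 and 76.8, 325 and 309 CPM at P16, with no contrast passing. The change from E16 to P16 differed between the organs by 7.67 ± 1.32 (edgeR interaction FDR 0.000497). Its other arm, miR-6540-3p, also fell to 0 in every cochlea P16 library, from 46.3 and 24.3 CPM at E16 and 5.35, 0, 0 and 11.1 CPM at P0, and held 6.70 to 18.3 CPM in all SOC libraries.

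miR-3099-3p, from the imprinted Peg3 and Usp29 region, was as abundant in SOC as in cochlea before P16. Cochlea libraries held 338 and 274 CPM at E16, 364, 414, 610 and 532 CPM at P0 and 20.4, 46.7, 19.9 and 44.6 CPM at P16. The P16 libraries were far below all others, by -3.24 ± 0.52 from E16 (edgeR FDR 1.35e-08) and -3.89 ± 0.48 from P0 (edgeR FDR 1.24e-13). SOC libraries held 229, 306, 310 and 411 CPM at E16, 289, 498, 526 and 309 CPM at P0 and 177, 230 and 172 CPM at P16. There the P16 values were the lowest but for a slight overlap with E16, and the change of -0.70 ± 0.38 did not pass (edgeR FDR 0.146). The organs differed by 2.45 ± 0.61 from E16 to P16 (edgeR interaction FDR 0.00808).

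miR-6715-3p, from the β-tectorin gene, stood at 433 and 408 CPM in cochlea at E16, at 551, 799, 565 and 493 CPM at P0 and at 51.0, 101, 126 and 149 CPM at P16. The P16 libraries lay below all others, by -1.99 ± 0.46 from E16 (edgeR FDR 0.000111) and -2.51 ± 0.41 from P0 (edgeR FDR 3.83e-08). Its partner miR-6715-5p was scarcer, at 57.2 and 33.0 CPM at E16, at 69.5, 68.2, 70.6 and 66.5 CPM at P0 and at 5.10, 54.5, 13.3 and 22.3 CPM at P16. No cochlea contrast passed for it (from E16 to P16 -0.98 ± 0.77, edgeR FDR 0.319). In SOC miR-6715-5p stood at 1.23, 15.1, 10.6 and 1.13 CPM at E16, at 0, 0.185, 0.235 and 0.930 CPM at P0 and at 0, 0.212 and 0.383 CPM at P16. The 2 high E16 libraries were those rich in miR-99b-5p. It fell by 4.51 ± 1.2 on the log2 scale from E16 to P0 (edgeR FDR 0.0458) and by 5.08 ± 1.42 from E16 to P16 (edgeR FDR 0.0135). In SOC it passed the detection filter only through its E16 libraries, so the fall is tied to that filter. In the same SOC libraries the epithelial miRNAs went from 730 to 1468 CPM at E16 to 33.8 to 140 CPM at P0 and 16.7 to 142 CPM at P16, and the hair cell miRNAs from 97018 to 147946 CPM to 4236 to 29682 CPM and 592 to 2901 CPM, and their part in the fall was not tested. miR-6715-3p was too scarce in SOC to be tested, with 22 counts at E16, 2 at P0 and 1 at P16.

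Among the 43 miRNAs with a sequence, 4 (9.3%) lay inside an annotated snoRNA or scaRNA on the same strand, against 1.64% of 304 earlier-numbered miRNAs with the same count minimum and 1.55% of the 1415 listed. miR-3084-3p, inside snoRNAs at 2 loci of chromosome 19, stood at 144 and 160 CPM in cochlea at E16, at 342, 282, 360 and 310 CPM at P0 and at 173, 521, 259 and 364 CPM at P16. E16 was lowest throughout, yet the changes of 1.08 ± 0.49 and 1.10 ± 0.49 did not pass (edgeR FDR 0.086 and 0.0695). miR-3069-3p, at chr12:105031078-105031099 on the minus strand inside Scarna13, stood at 87.1 and 111 CPM at E16, at 246, 273, 424 and 277 CPM at P0 and at 184, 529, 199 and 111 CPM at P16. P0 and P16 were both called higher, by 1.61 ± 0.52 (edgeR FDR 0.0119) and 1.35 ± 0.52 (edgeR FDR 0.0318). The lowest P16 library was within 1 CPM of the higher E16 library. The P0 call was lost without either E16 library (1.44 and 1.75, edgeR FDR 0.194 and 0.107) and the P16 call without either E16 library, P0 replicate 1, 2 or 4, or P16 replicate 2 (0.80 to 1.39, edgeR FDR 0.0509 to 0.254). With library totals neither passed (1.13 and 0.72). In SOC miR-3069-3p rose from 2.81, 2.24, 2.00 and 2.08 CPM at E16 and 3.80, 1.30, 1.41 and 1.86 CPM at P0 to 8.75, 7.95 and 9.48 CPM at P16, by 1.93 ± 0.45 (edgeR FDR 0.00507) and 2.04 ± 0.45 (edgeR FDR 0.0106).

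In SOC, 31 of the 52 passed the detection filter and were tested. Of all 694 miRNAs tested there, 6.63% were called between E16 and P0 (2.45% higher, 4.18% lower), and of the 31 only miR-6715-5p was called, lower at P0. As given above, miR-6715-5p entered the SOC tests only through its E16 libraries, where it was high. Between E16 and P16 the share was 41.2% of all, 21.2% higher and 20% lower at P16, and of the 31 miRNAs 9 were higher and 1 (miR-6715-5p) lower. From P0 to P16 it was 16.1% of all, 8.07% in each direction, and of the 31 miRNAs 4 were higher (miR-3065-3p, miR-7047-3p, miR-3102-3p.2-3p and miR-3069-3p) and none lower. The median log2 fold change of the 31 was 0.12, 0.84 and 0.59 in these contrasts, against 0.17, 0.08 and -0.15 for all miRNAs tested. Besides miRNAs described above, miR-7653-3p (3.06 ± 0.58, edgeR FDR 0.00174) and miR-8114 (1.39 ± 0.52, edgeR FDR 0.0462) were called higher at P16 than at E16, both named after their values were seen. In both organs 7 miRNAs were called from E16 to P16, all higher at P16, which is 7 of the 26 called in cochlea and 7 of the 10 called in SOC. Of the 545 miRNAs tested in both organs, 19.4% were called in both (22.6% of the 31) and 5.87% were higher in both (22.6% of the 31). The 7 were miR-3065-3p, miR-3069-3p, miR-3102-3p.2-3p, miR-6412, miR-7047-3p, miR-7052-3p and miR-7653-3p. The cochlea count minimum was met by miR-3065-3p, miR-7047-3p, miR-7052-3p and miR-7653-3p only with the P16 libraries. Both shares of the 31 are therefore tied in part to the choice of miRNAs. So is their comparison with the 545.

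The library sets bore on the SOC calls. When the 4 miR-99b-5p-rich libraries were dropped, E16 and P0 were left with 2 libraries each, and 0, 4 and 1 miRNAs were called in the 3 contrasts, miR-6715-5p no longer among them (-1.61, edgeR FDR 0.695, from E16 to P0 and -2.59, edgeR FDR 0.206, from E16 to P16). Of 13 calls for named miRNAs in SOC, 9 were lost in this way. Besides those of miR-6715-5p, these were from E16 to P16 miR-3069-3p (1.79, edgeR FDR 0.0711), miR-3102-3p.2-3p (2.39, edgeR FDR 0.0517), miR-3102-5p.2-5p (3.26, edgeR FDR 0.0786) and miR-7052-3p (edgeR FDR 0.065), and from P0 to P16 miR-3069-3p (1.58, edgeR FDR 0.183), miR-3102-3p.2-3p (2.59, edgeR FDR 0.11) and miR-7047-3p (2.81, edgeR FDR 0.124). Dropping the miR-191-5p-poor libraries instead cost the calls from P0 to P16 of miR-3069-3p (1.87, edgeR FDR 0.0736) and miR-7047-3p (2.06, edgeR FDR 0.0634). Leaving out SOC P0 replicate 4, the sole P0 library poor in miR-191-5p, raised the calls from P0 to P16 to 13, and without P16 replicate 1 there were 8. Without E16 replicate 2 or 3, P0 replicate 1, 2 or 3 or P16 replicate 2, no miRNA was called from E16 to P0 (miR-6715-5p -3.80 to -4.56, edgeR FDR 0.052 to 0.134), and without P0 replicate 4 the calls were 2. Within the set that had neither feature, with 2 libraries at E16 and 1 each at P0 and P16, the log2 ratio of P16 to E16 (0.5 CPM added) was 4.28 for miR-3065-3p, 2.91 for miR-7047-3p, 2.63 for miR-7653-3p, 2.29 for miR-3102-3p.2-3p, 1.92 for miR-6412, 1.83 for miR-3102-5p.2-5p, 1.65 for miR-3069-3p, 1.62 for miR-7052-3p and 1.03 for miR-8114. All 9 ran upwards within that set. A call required that the libraries of both time points did not overlap, so this direction was fixed in advance and only the sizes are informative. The same holds for miR-6715-5p, which ran downwards from E16 to P0 within the miR-99b-5p-rich set (-4.23) and within the set with neither feature (-1.75).

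The change over time was compared between the organs for 545 miRNAs tested in both, including the 31. From E16 to P0 the change differed for 11.9% of all and for 3 of the 31, namely miR-6715-5p (SOC minus cochlea -5.19 ± 1.48, edgeR FDR 0.0202), miR-3470a and miR-3470b. From E16 to P16 it differed for 16.9% of all and for 8 of the 31. A stronger rise or weaker fall in SOC was found for miR-6540-5p, miR-3102-5p.2-5p and miR-3099-3p, and the reverse for miR-3470a, miR-3470b, miR-3472, miR-5128 and miR-5615-5p. The first 4 of these 5 were named after their values were seen. The cochlea count minimum was met by miR-6540-5p and miR-3102-5p.2-5p only with the E16 libraries, and by miR-3472 only with those of P0 and of P16. In SOC miR-6715-5p passed the detection filter only through E16. The shares of the 31, and their comparison with the 545, are therefore tied in part to the choice of miRNAs and to the filter. Without cochlea E16 replicate 1 the numbers fell to 0 and 3, and without cochlea E16 replicate 2 to 1 and 4. Leaving out SOC E16 replicate 2 gave 0 and 5, and without SOC P16 replicate 2 there were 4 from E16 to P16. Without SOC P0 replicate 1, 6 differed from E16 to P0.

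miR-3470b and miR-3472 occur within annotated transcripts of many genes (591 and 7), as repeat sequence does, and miR-3470a carries a related name. In cochlea miR-3470b stood at 89.9 and 50.4 CPM at E16, at 176, 321, 173 and 144 CPM at P0 and at 362, 288, 166 and 260 CPM at P16, while in SOC it stayed between 1.86 and 8.10 CPM. The organs differed by -2.48 ± 0.78 (edgeR FDR 0.0351) at P0 and -2.59 ± 0.80 (edgeR FDR 0.0282) at P16. For miR-3470a the differences were -2.90 ± 0.82 (edgeR FDR 0.0202) and -2.96 ± 0.86 (edgeR FDR 0.0203). All cochlea libraries of P0 and P16 lay above those of E16 for both. miR-5128 rose in cochlea from 8.17 and 22.6 CPM at E16 to 48.1, 53.6, 103 and 133 CPM at P0 and 219, 202, 153 and 201 CPM at P16, against 0.821 to 4.56 CPM over the SOC libraries (difference at P16 -2.91 ± 0.86, edgeR FDR 0.0225). For miR-3472 the difference at P16 was -5.42 ± 1.62 (edgeR FDR 0.0239), but cochlea P16 held 51.0, 117, 0 and 81.8 CPM and overlapped E16.

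Whether the hairpins gave reads on both arms was examined in the 36 of 52 for which the table listed the other arm. In cochlea the other arm had 10 or more counts for 16 of the 36 (44.4%), 1 to 3 counts for 10 and none for 5. Of 312 earlier-numbered miRNAs with the same minimum, 243 (77.9%) had 10 or more counts on the other arm, 22 had 1 to 3 and 17 none. The late-numbered miRNAs had fewer counts themselves (median 125 against 478.5). Among earlier-numbered miRNAs up to the highest late-numbered count, a limit set after the values were seen, the median was 313.5 and the share 74.8%. In the deeper SOC libraries 28 of the 36 had 10 or more counts on the other arm, against 293 of the 312. The median share of cochlea counts on the named arm was 96.1%, against 85.5% for the earlier-numbered.

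The arms differed in balance between the organs. With at least 50 SOC counts on both arms together, 28 of the 36 could be compared, and 9 of them held over 50% of the cochlea counts but under 50% of the SOC counts of their hairpin (earlier-numbered 42 of 307). Among these 28 are both arms of 4 hairpins, and only the arm that leads in cochlea can meet this condition. Both arms entered more often among the earlier-numbered, as given above, so 9 of 28 and 42 of 307 are not fully alike. For miR-6715 cochlea had 900 counts on 3p and 103 on 5p, and SOC 25 and 355. The 5p arm of miR-7667 had 791 cochlea counts against 2 on 3p, and 21 SOC counts against 154. miR-3102-3p.2-3p had 1922 counts against 92 on its partner in cochlea and 814 against 1729 in SOC. miR-3071 was all but single-armed in cochlea, with 487 counts on 3p and 3 on 5p, and in SOC had 1945 and 2732. In the SOC sums of these 4 hairpins the arm that led in cochlea was the minor one, but for the last 2 the values moved with the 3 miR-191-5p-poor libraries. Without those, miR-3071 had 1879 counts on 3p and 969 on 5p, with 3p ahead in 7 of 8 SOC libraries, and miR-3102-3p.2-3p had 460 against 472 on its partner. miR-7667-5p led in none of the 11 SOC libraries and miR-6715-5p had more counts than 3p in the sum of every library set. The number of miRNAs with such a change of arm was 7 of 26 without the miR-191-5p-poor libraries and 9 of 26 without the miR-99b-5p-rich ones, a split by set made after the values were seen. Further cases in the sums were miR-3074-5p (209 and 81 counts in cochlea, 1332 and 1488 in SOC), miR-5620-3p (128 and 6, then 36 and 83) and, named after the values were seen, miR-3057-3p (122 and 78, then 117 and 2915), miR-7668-3p (56 and 22, then 13 and 39) and miR-6516-3p (225 and 0, then 1 and 158). For miR-3071 and miR-3074 these counts cannot be told apart from reads of the hairpins opposite.

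Other hairpins held to 1 arm in both organs. miR-3099 had 645 counts on 3p and 1 on 5p in cochlea, and 42687 and 57 in SOC. miR-3102-3p had 2687 counts against 1 on miR-3102-5p in cochlea and 3040 against 21 in SOC. miR-6540 kept 5p as the major arm, with 154 and 34 counts in cochlea and 22388 and 1941 in SOC. miR-3065-3p had 83 counts against 0 in cochlea and 6412 against 360 in SOC. miR-5615-5p was alone among these in having few SOC counts, with 115 on 5p and 4 on 3p, against 582 and 15 in cochlea.

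**Figure D3:**
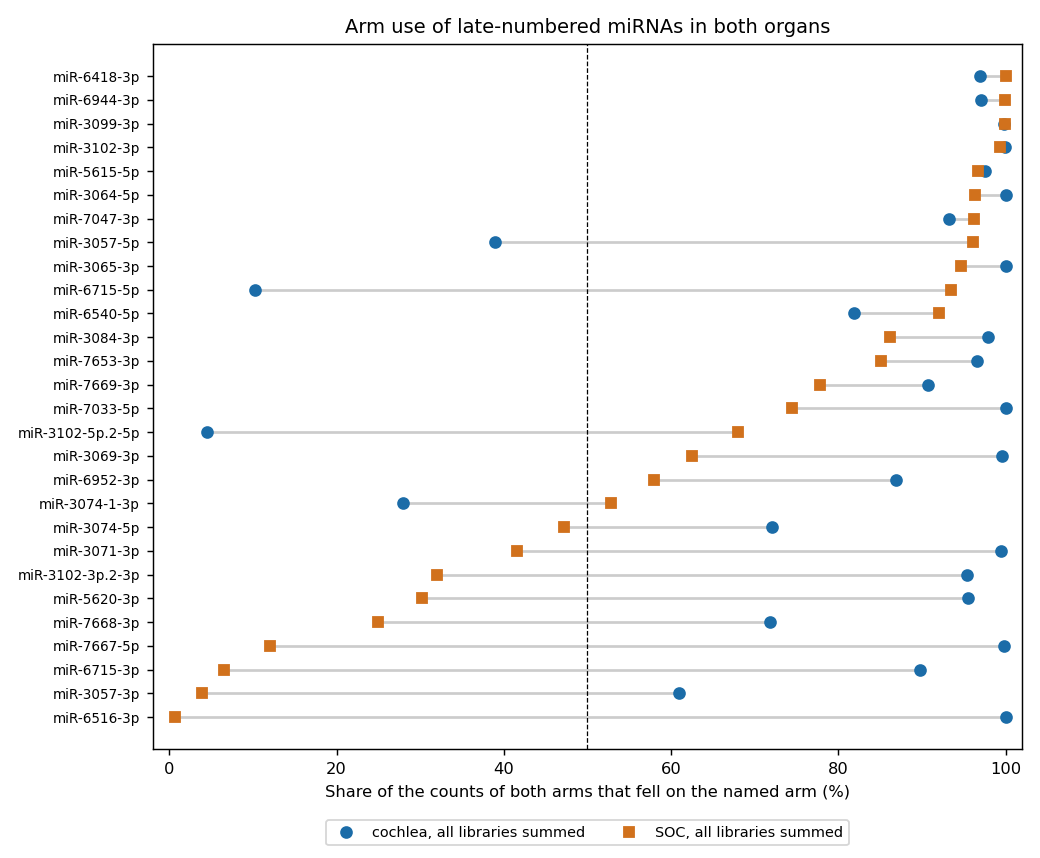
Share of the counts of both arms that fell on the named arm (x axis, percent), with all libraries of an organ summed, for the 28 late-numbered miRNAs with at least 50 SOC counts on their arms together (circles cochlea, squares SOC, dashed line at 50%). For 9 miRNAs the circle lies right of the dashed line and the square left of it, the farthest apart being miR-6516-3p, while miR-3099-3p and miR-3102-3p lie near 100% in both organs.

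All 52 are detected in cochlea by the way they were chosen, so detection in SOC is read against the earlier-numbered miRNAs with the same minimum. The detection filter, over 1 CPM in 2 or more libraries of the same group, was passed in SOC by 31 of the 52 (59.6%), against 320 of the 354 earlier-numbered miRNAs (90.4%) and 253 of 286 (88.5%) within the same range of cochlea counts. With the SOC libraries thinned to the median cochlea total the numbers were 27 of 52 and 303 of 354. Fewer SOC counts than cochlea counts, despite the greater depth, were held by 24 of the 52 and 68 of the 354. At most 3 SOC counts in 11 libraries were held by 5 of the 52 and 1 of the 354. The pooled SOC level was under 10% of the cochlea level for 38 of the 52 and 156 of the 354, and above it for 4 and 82. The median log2 ratio of pooled SOC to cochlea CPM was -5.80 for the 52 and -2.73 for the 354, or -2.32 within the same count range. These levels come from different kits. Among the earlier-numbered miRNAs, let-7a-5p, a miRNA of nearly all differentiated tissues, had 1 to 81 counts per SOC library against 398 to 2452 per cochlea library.

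The 2 ends of this range were far apart. miR-6980-5p had 63 counts in cochlea and 0 in SOC, which allows up to 0.259 CPM per SOC library, and its other arm had 2 and 5 counts. miR-8117 had 1 SOC count. miR-5100 had 53 SOC counts, 16 at E16, 33 at P0 and 4 at P16. At the other end, miR-3099-3p and miR-6540-5p reached up to 526 and 712 CPM in single SOC libraries. The third was miR-6944-3p, named after its values were seen, with 130 counts on 3p and 4 on 5p in cochlea and 21051 and 17 in SOC. It stood at 113 to 272 CPM over all SOC libraries and no SOC contrast passed (0.03 ± 0.39 from E16 to P16, edgeR FDR 0.95).

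**Figure D4:**
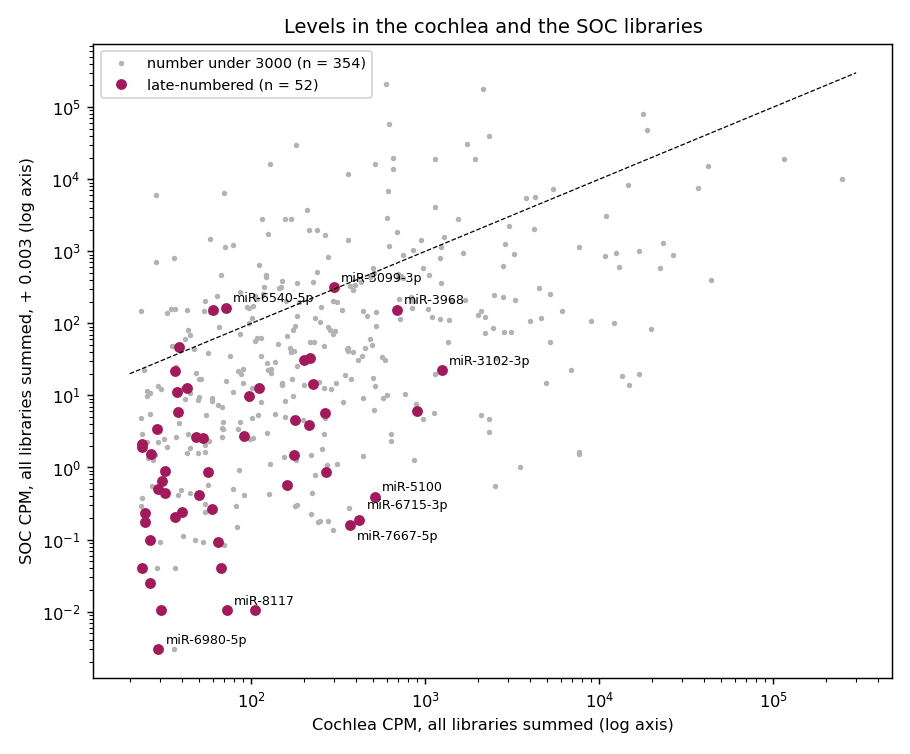
Pooled CPM of each miRNA in the 11 SOC libraries (y axis, 0.003 added) against the 10 cochlea libraries (x axis), both on log axes, for the 52 late-numbered miRNAs (large points) and the 354 earlier-numbered miRNAs (small points), with the dashed line marking equal levels. Of the 52, 4 lie above the dashed line, and miR-6980-5p lies at the bottom with no SOC count.

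The sequences of the 43 miRNAs had a median length of 22 bases and a median GC content of 59.1% (33.3% to 76.2%), against 50% for the 304 earlier-numbered miRNAs with the same minimum and 52.4% for all 1415. In 7 of the 43 (16.3%) the 3′ end lay within 2 bases of the end of an annotated intron on the same strand, as the 3p arm of a mirtron does. This compared with 6 of the 304 (1.97%) and 189 of the 1415 (13.4%). The 7 were miR-3102-3p, miR-7047-3p, miR-7052-3p and, named after their values were seen, miR-6418-3p, miR-6944-3p, miR-7075-3p and miR-7092-3p. At P16, 4 of these 7 were called higher than at E16 in cochlea and none lower, and of the 5 tested in SOC 2 were higher, beside 44.2% of the 52 and 10.9% of all miRNAs tested in cochlea and 29% of the 31 and 21.2% of all miRNAs tested in SOC. Of those called in cochlea, miR-7047-3p and miR-7052-3p met the count minimum only with the P16 libraries, so this number is tied to the choice of miRNAs. 3 of the 43 ended in CCA, the last bases of every mature tRNA, against 22 of the 1415. They were miR-3968, which also holds the run CGAAUCCCA, miR-3102-3p.2-3p and, named after its values were seen, miR-3060-3p. The run GAGAUGGCU was found in 2 of the 43 (miR-5128 and miR-3473b, the latter named after its values were seen) and 4 of the 1415. 3 of the 43 lay in transcripts of 5 or more genes, and 3 overlapped a hairpin on the other strand. Of the last, miR-3071-3p and miR-3074-5p shared the low values at P0 described above, and miR-5615-5p rose.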

How the data were processed

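Small RNA counts per mature miRNA were deposited by the authors as a single table of unnormalised counts for 21 libraries. The submitters' processing notes name Bowtie2 2.2.5, DESeq2 and mm10, the study's methods name Bowtie and MirGeneDB, and the step that gave miRBase names, its strand setting included, is not given in the sources used here. Groups and replicate numbers came from the labels. Whether replicates were separate pools is taken from the labels only, so p-values measure the spread between these libraries. The 52 miRNAs, the marker lists and the tests were chosen with earlier results of these data known.

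From the counts, edgeR 4.0.16 (R 4.3.3) was run per organ on all miRNAs that exceeded 1 CPM in 2 or more libraries of the same time point, with TMM factors, a quasi-likelihood fit on time point and Benjamini-Hochberg adjustment. The design assumed counts, as the table holds. The organ by time interaction was fitted on all 21 libraries. Scripts were tested on simulated data. Named with values were miR-5100, the 12 with most cochlea counts, the 3 largest and smallest called changes of each contrast, and their other arms. No label says what a replicate number stands for. Deviations of same-numbered libraries from their group means correlated at over 0.1 in all 4 pairs of SOC E16 and P0 (0.251 to 0.490). They did so in 1 of 6 other pairs in SOC and 1 of 8 in cochlea. SOC E16 replicate 3 with P0 replicate 2 (0.409) and E16 replicate 2 with P0 replicate 3 (0.255), all rich in miR-99b-5p, correlated as well. Other unlike-numbered pairs of SOC E16 and P0 were at 0.0753 or lower. For replicates 2 and 3, number and library set cannot be told apart. Replicate libraries differed by far more than sampling noise. Alternatives were DESeq2 1.42.0, other scaling, other filters, a replicate block, the library sets and leaving out each library. Sequences and positions were read from RefSeq tables (GRCm38.p6) with Python 3.11.15.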

Additional observations from a re-analysis of the deposited data

Results flagged for a closer look

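In 16 of 91 groups of 4 libraries 1 library stood apart from the others, by Dixon's ratio of its gap to the whole range. Of these, 5 were in cochlea and 11 in SOC. The limit flags about 1 in 20 groups only where values are normally distributed. Here CPM values were untransformed, and a group with counts in a single library always has a ratio of 1. The number flagged can therefore not be read against that rate. miR-5100 at P16 had replicate 2 at 3730 CPM against 907 to 1330 CPM (ratio 0.849). P0 replicate 3 stood apart for miR-3968 (2400 against 289 to 471 CPM, 0.914), miR-3102-5p.2-5p (96.3 against 16.6 to 24.4 CPM, 0.903) and miR-8117 (944 against 0 to 21.4 CPM, 0.977). miR-6540-5p at P16 had its only count in replicate 3 (6.64 CPM, ratio 1).

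In SOC, P0 replicate 4 stood apart for 5 miRNAs, which were miR-3968 (701 against 42.3 to 108 CPM, ratio 0.9), miR-6540-5p (712 against 99.5 to 113 CPM, 0.977), miR-3102-5p.2-5p (25.2 against 2.67 to 4.62 CPM, 0.913), miR-3074-1-3p (27.9 against 3.98 to 6.39 CPM, 0.899) and miR-3074-5p (24.4 against 3.68 to 6.65 CPM, 0.857). It was also the P0 library poor in miR-191-5p, and the part of that set in these values was not tested. E16 replicate 4 stood apart for miR-3102-3p (42.8 against 16.5 to 20.7 CPM, 0.838). The other cases rest on 1 library with a few counts and 3 with none, each with a ratio of 1. These were miR-6715-3p and miR-7667-5p in P0 replicate 1 (0.0904 CPM each), miR-7011-5p in P0 replicate 3 (0.157 CPM), and miR-7052-3p and miR-8117 in E16 replicate 2 (0.309 and 0.0771 CPM).

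The change over time differed between the organs by the interaction test for 11 results, as SOC minus cochlea log2 fold change. From E16 to P0 these were miR-3470a (-2.90), miR-3470b (-2.48) and miR-6715-5p (-5.19). From E16 to P16 they were miR-3099-3p (2.45), miR-3102-5p.2-5p (4.03), miR-3470a (-2.96), miR-3470b (-2.59), miR-3472 (-5.42), miR-5128 (-2.91), miR-5615-5p (-3.52) and miR-6540-5p (7.67). Kit and organ cannot be told apart in these differences. Those of miR-6540-5p, miR-3102-5p.2-5p and miR-3472 are also tied to the choice of miRNAs, and that of miR-6715-5p to the SOC detection filter.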

How the results depend on the processing

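In cochlea, the calls from E16 to P0 numbered 9 with library totals and 8 with at least 10 counts required in every library, a filter that also gave 9 calls from E16 to P16 and 2 from P0 to P16 by testing fewer miRNAs. Leaving out 1 library gave 4 to 17, 15 to 31 and 8 to 9 calls in the 3 contrasts. In SOC, the calls from E16 to P0 numbered 3 with DESeq2, 2 with library totals, 0 with the filter of 10 counts, 3 with library set as a covariate, 0 without the miR-99b-5p-rich libraries and 2 without the miR-191-5p-poor libraries. From E16 to P16 there were 5 with the filter and 4 without the miR-99b-5p-rich libraries, and from P0 to P16 there was 1 without the latter. Leaving out 1 SOC library gave 0 to 2, 8 to 12 and 4 to 13 calls. Differences between the organs numbered 7 with DESeq2 and 1 with the filter from E16 to P0, and 1 with the filter from E16 to P16, and ranged from 0 to 6 and from 3 to 10 when 1 library was left out. The median share of counts at cochlea P16 was 0.886% without miR-5100. Both ways of leaving out an SOC library set were added after the data were seen. Except where fewer miRNAs or libraries entered, the cause was not tested.

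With the replicate number as a block, 11, 23 and 8 calls were made in cochlea, 1, 12 and 5 in SOC and 3 and 7 between the organs. The block cost 3 of 48 calls for named miRNAs, all in cochlea, where numbers did not pair the libraries, namely miR-3069-3p (1.38) and miR-3102-3p (1.06) from E16 to P16 and miR-6980-5p (2.33) from E16 to P0. Between SOC E16 and P0, where same-numbered libraries correlated, no call changed. Of the 48 called results for named miRNAs, 835 values were computed under alternatives, and 772 remained called, 63 lost the call and none changed sign. A call required libraries without overlap, so where libraries were left out the sign was all but fixed in advance. No call was lost with DESeq2, RLE size factors or scaling without the 52 miRNAs, 7 with library totals, 9 of 13 without the miR-99b-5p-rich libraries, 12 of 35 without cochlea E16 replicate 1 and 11 of 35 without replicate 2. At 124400 to 447419 counts per library and 2 libraries at E16, cochlea changes of the scarcest miRNAs rest on a few counts.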
